A study of Homo sapiens with 4 samples.

Results

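The genes described here are genes of Wnt signalling: the ligands, their receptors, the secreted antagonists, the transducers and some target genes of the pathway. The rule that picks members reads symbols only. The rule covered the WNT, FZD, SFRP, DKK, RSPO and LGR4 to LGR6 families, LRP5 and LRP6, TCF7 with its relatives TCF7L1 and TCF7L2, and FRZB, WIF1, AXIN1, AXIN2, LEF1, CTNNB1, NKD1, NKD2, ZNRF3, RNF43, NOTUM and APCDD1. It found 59 of the 17687 genes measured. TCF7, FZD8 and WNT9B fit the rule but were not among these genes.

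The cells were KGN, a line derived from a human ovarian granulosa cell tumour, and RNA levels were read with Clariom S Human arrays. All cultures were transfected, either with control siRNA at 10 nM (siNC) or with siRNAs against YAP and TAZ at 5 nM each (siYT), and 48 h later received fresh medium for another 24 h. That medium contained 0.5 mM 8Br-cAMP, an analogue of cyclic AMP that enters cells, or none. The 4 groups, siNC, siNC+8Br-cAMP, siYT and siYT+8Br-cAMP, therefore differ in siRNA and medium only, and each was read on 1 array. The design addresses what loss of YAP and TAZ, the transcriptional coactivators of the Hippo pathway, does to this line with and without a cyclic AMP signal.

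In the canonical branch of the pathway a WNT protein bridges a Frizzled receptor (FZD) and the coreceptor LRP5 or LRP6. This stops a complex built on AXIN from marking beta-catenin (CTNNB1) for degradation, and beta-catenin then switches on genes with the DNA-binding factors TCF and LEF1. AXIN2, NKD1, LGR5, RNF43, ZNRF3 and NOTUM are feedback genes of this branch in many tissues. In the ovary WNT4 and RSPO1 are known for their part in female gonad development. YAP and TAZ have been described as bound to the beta-catenin destruction complex.

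Levels are in deposited log2 units, and 2 arrays are compared by subtracting one log2 level from the other, so that 1 unit is a 2-fold difference. A gene was called by size when the difference was at least 1 and the higher of its values reached 6.22, the median of all gene values over the 4 arrays (the level filter). With 1 array per group no difference could be set against the spread between cultures, and 4 arrays allow little precision. An additive limma model with siRNA and 8Br-cAMP as terms was fitted to the whole set of 17687 genes. Its 1 residual degree of freedom holds the departure from additivity, so its p-values carry nothing on how much cultures vary. The model is also sensitive to its assumptions: no member passed with the value 32 added on the linear scale, where 6 members had an unadjusted p under 0.05 for the siRNA and 8 for 8Br-cAMP (limma). No member passed either with the prior degrees of freedom set to 4 in place of the estimated 9.24, where 8 members had an unadjusted p under 0.05 for each term (limma). The sizes are therefore the main result.

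The siRNA targets were lower in the siYT arrays. YAP1 was 6.44-fold lower without and 8.99-fold lower with 8Br-cAMP, and WWTR1, which encodes TAZ, differed by -2.13 and -3.79. Both siYT values of WWTR1 lie under the level filter, and with 32 added on the linear scale its differences were -1.56 and -3.03. Of 17 granulosa markers measured, 7 to 10 reached the level filter per array, among them GATA4 and STAR, whereas FOXL2 and LHCGR lay under it on all 4 arrays. The log2 of their summed linear level was 14.57 in siNC, 16.31 in siNC+8Br-cAMP, 15.99 in siYT and 18.51 in siYT+8Br-cAMP. The aromatase gene CYP19A1 was among them, at 5.04, 14.26, 14.26 and 17.56. These sums rest largely on a few genes, such as SERPINE2 at 14.09 in siNC and CYP19A1 in siYT+8Br-cAMP. The markers did not all move together. Between siYT and siNC, without and with 8Br-cAMP, FSHR differed by 2.49 and 2.41, SERPINE2 by -0.14 and 0.07 and WT1 by -0.24 and -0.74. Of 9 theca and stromal markers 5 to 7 reached the filter. Their sums were 14.34, 14.01, 15.09 and 14.22 in siNC, siNC+8Br-cAMP, siYT and siYT+8Br-cAMP. Within this list LUM and DCN were higher after siYT, by 5.34 and 3.38 without 8Br-cAMP, and TAGLN was lower, by -2.05. The siNC values of LUM and DCN, 4.89 and 5.84, lie under the filter. The sums for 8 epithelial markers were 16.44, 15.996, 12.77 and 12.197, set mainly by the keratin KRT18. Those for 6 immune markers were 10.86, 10.44, 12.73 and 13.17, and CD68 alone among them reached the filter. All 5 oocyte markers lay under the filter throughout. The 2197 positive control probe sets differed by a median of -0.36 between siYT and siNC without and -0.35 with 8Br-cAMP. The part of these shifts in the results below was not tested. All cultures were of the KGN line, so the lists describe RNA levels in this line. Whether all of its cells or only some of them shifted cannot be told from whole cultures.

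Most Wnt genes lay at low level in KGN. Of the 59 members, 21 reached the level filter on at least 1 array and 38 stayed under it on all 4. By role, 3 of 18 ligands, 8 of 11 Frizzled and LRP receptors, 2 of 9 members of the R-spondin, LGR and E3 ligase group, 4 of 13 antagonists and 4 of 8 intracellular members reached it. Over all genes 55.1% reached it. Of the 21, 18 also reached 6.95, the 95th percentile of the negative control probe sets. The exceptions were WNT4, FZD5 and FZD9.

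The ligands under the filter were WNT1, WNT2, WNT2B, WNT3, WNT3A, WNT6, WNT7A, WNT7B, WNT8A, WNT8B, WNT9A, WNT10A, WNT10B, WNT11 and WNT16, with values from 2.20 to 5.63. The receptors FZD3, FZD7 and FZD10 lay under it as well, with FZD7 reaching 6.21. So did all 4 R-spondins, secreted proteins that strengthen Wnt signals through LGR receptors, together with LGR5, LGR6 and the E3 ligase RNF43, at 2.63 to 6.06. The antagonists under it were SFRP2, SFRP5, FRZB, WIF1, DKK2, DKK4, DKKL1, NOTUM and APCDD1, at 2.79 to 5.71. Among the intracellular members LEF1, TCF7L1, NKD1 and NKD2 lay under it, at 2.56 to 5.97. Differences of these 38 genes depend on the background and were not called.

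**Figure D1:**
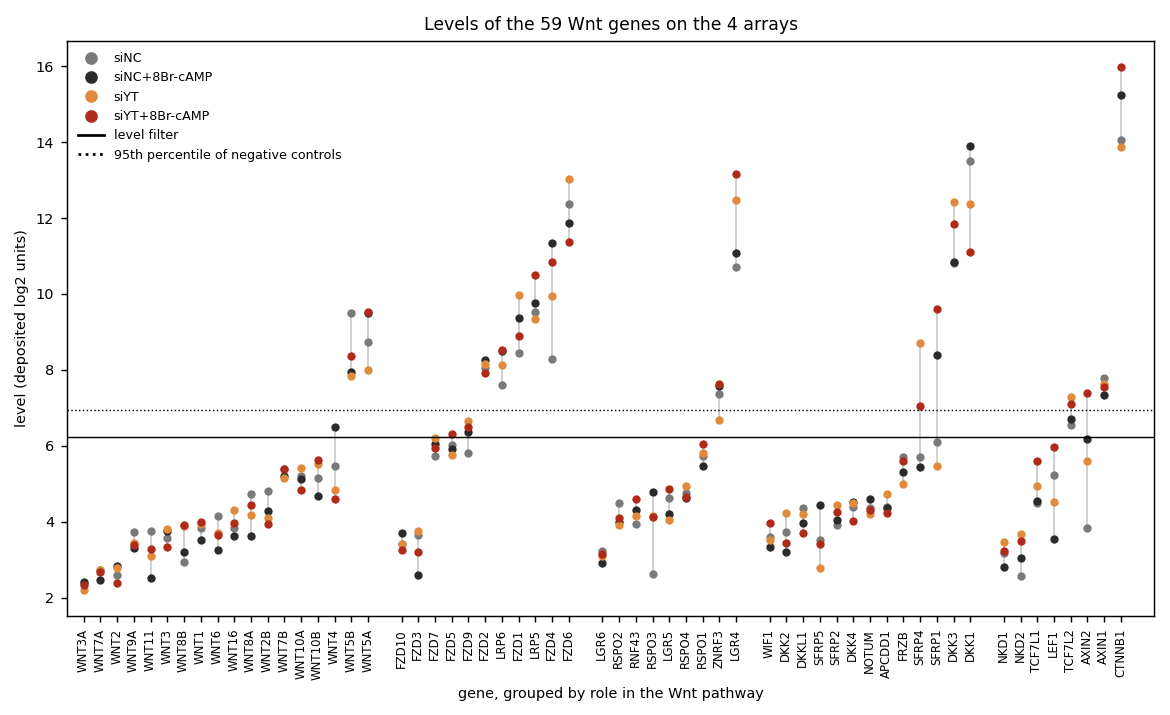
Levels of the 59 Wnt genes in deposited log2 units (vertical axis), grouped by role and ordered by their highest value, with 1 point for each of the 4 arrays. The solid line is the level filter at 6.22 and the dotted line the 95th percentile of the negative controls at 6.95, and 38 of the 59 genes lie under the solid line on every array.

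With YAP/TAZ siRNA, 7 of 59 members were called in the medium without 8Br-cAMP, 5 of them higher and 2 lower. These are 11.9% of the members, where 14.9% of all genes were called, 7.6% higher and 7.32% lower. With 8Br-cAMP 6 were called, 4 higher and 2 lower, or 10.2%, where 11.5% of all genes were called, 5.52% higher and 5.94% lower. The median difference of the members was 0.09 and 0.22, beside 0.02 and 0.06 over all genes. Fewer members than other genes reach the level filter, so these shares combine detection with change. The genes called in both media were AXIN2, LGR4 and SFRP4, which were higher, and DKK1, which was lower. These are 4 of 59, or 6.78%, where 7.33% of all genes were called in both media, 3.44% higher and 3.89% lower. For this joint call a value at or over the level filter in any group was enough. AXIN2 met that condition only through siYT+8Br-cAMP, at 7.39. Without 8Br-cAMP its values of 3.84 in siNC and 5.60 in siYT lie under the filter, so AXIN2 is not among the 7 calls there.

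DKK1 is a secreted antagonist that binds LRP5 and LRP6 and keeps them from forming the receptor complex. Its level was 13.52 in siNC, 13.90 in siNC+8Br-cAMP, 12.36 in siYT and 11.11 in siYT+8Br-cAMP. The siYT arrays were thus both lower than the siNC arrays, by 2.23-fold without and 6.93-fold with 8Br-cAMP. The mean difference over both media was -1.98 with an SE of 0.399, and DKK1 was the only member that fell by this fit (limma, adjusted p = 0.0126), where 4.67% of all genes fell.

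LGR4 is a receptor for R-spondins that protects Frizzled proteins from removal. It stood at 10.70 in siNC, 11.08 in siNC+8Br-cAMP, 12.48 in siYT and 13.15 in siYT+8Br-cAMP. The siYT arrays were the higher ones in both media, by 3.43-fold and 4.20-fold, and the siRNA differences of 1.78 and 2.07 were close to each other. LGR4 rose by 1.93 on average with an SE of 0.310 (limma, adjusted p = 0.00386). ZNRF3, a membrane E3 ligase that removes Frizzled receptors and is itself removed by R-spondin and LGR, ran from 6.68 in siYT to 7.64 in siYT+8Br-cAMP and was not called.

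SFRP4 is a secreted Frizzled-related protein that binds WNT ligands. Its level was 5.70 in siNC and 5.45 in siNC+8Br-cAMP, under the filter, against 8.70 in siYT and 7.06 in siYT+8Br-cAMP. Its siRNA difference was 3.002 without and 1.60 with 8Br-cAMP. These start from values near the background, and with 32 added on the linear scale they were 2.42 and 1.12. SFRP4 rose by 2.30 on average with an SE of 0.376 (limma, adjusted p = 0.00408).

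AXIN2 encodes a scaffold of the beta-catenin destruction complex and is a widely used readout of canonical Wnt signalling. It was at 3.84 in siNC, 6.18 in siNC+8Br-cAMP, 5.60 in siYT and 7.39 in siYT+8Br-cAMP. Only the last of these values reached the level filter. The siRNA difference was 1.76 without 8Br-cAMP, where both values lie under the filter, and 1.21 with it. With 32 added on the linear scale these became 0.80 and 0.93, both under the threshold, and AXIN2 was no longer called for the siRNA. The mean siRNA difference of 1.48, with an SE of 0.318, passed the fit (limma, adjusted p = 0.0167), but 3 of the 4 values behind it lie under the filter. Its relative AXIN1, which is not a target of the pathway, lay between 7.34 and 7.78 and was not called in any comparison.

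DKK3, a divergent member of the DKK family, passed the fit as well. It was at 10.82 in siNC, 10.85 in siNC+8Br-cAMP, 12.42 in siYT and 11.84 in siYT+8Br-cAMP. It was 3.03-fold higher after siYT without 8Br-cAMP, and with 8Br-cAMP its difference of 0.99 fell just short of the threshold, which it passed at 1.05 with each array centred on its median. DKK3 rose by 1.30 on average with an SE of 0.320 (limma, adjusted p = 0.0317). In all, 4 members rose and 1 fell for the siRNA, beside 8.97% of all genes that passed, of which 4.3% of all genes rose. WNT4 did not pass (limma, adjusted p = 0.0597), but passed as lower with arrays centred on their median and with cyclic loess. It also passed in a fit of filtered genes only. WNT4 entered that fit only through its siNC+8Br-cAMP value, its highest, so the filtered fit adds no support.

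**Figure D2:**
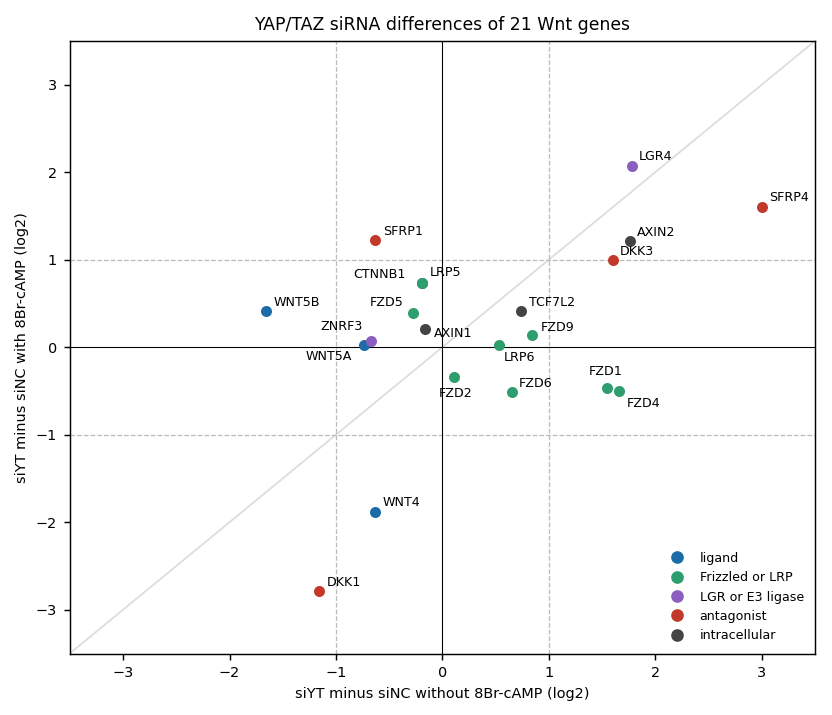
Difference between siYT and siNC in log2 units without 8Br-cAMP (horizontal axis) and with it (vertical axis) for the 21 Wnt genes that reached the level filter, 1 point per gene coloured by role. LGR4, SFRP4 and AXIN2 lie past the dashed threshold of 1 on both axes and DKK1 past -1 on both, FZD1 and FZD4 lie at the right but under 0, and the points of LRP5 and CTNNB1 coincide.

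The sequence upstream of the gene start is given for 4 members that were called in both media for the siRNA or after each siRNA for 8Br-cAMP, since their differences passed the threshold in both pairs of arrays. RefSeq sequences of build GRCh38.p14 were matched for 40 of the 59 members, and of the members so called AXIN2 and SFRP1 are not shown. Shown are the 250 bases before the gene start, 5′ to 3′ on the strand of the gene. Capitals mark the letters CATTCC (core of the TEAD motif, the partner of YAP and TAZ), CTTTGA (core of the TCF/LEF motif) or TGACG (core of the cyclic AMP response element), each searched on both strands.
DKK1 (chr10:52314031-52314280, plus strand): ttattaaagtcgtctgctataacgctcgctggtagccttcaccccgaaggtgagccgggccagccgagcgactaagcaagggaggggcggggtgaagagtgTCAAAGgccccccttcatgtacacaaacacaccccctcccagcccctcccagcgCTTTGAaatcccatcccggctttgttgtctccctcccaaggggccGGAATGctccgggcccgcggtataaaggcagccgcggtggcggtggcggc
LGR4 (chr11:27472791-27473040, minus strand): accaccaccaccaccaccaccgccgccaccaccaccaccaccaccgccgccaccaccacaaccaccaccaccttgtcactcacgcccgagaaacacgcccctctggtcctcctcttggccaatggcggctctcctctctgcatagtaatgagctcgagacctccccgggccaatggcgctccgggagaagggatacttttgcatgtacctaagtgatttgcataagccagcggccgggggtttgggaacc
SFRP4 (chr7:37916818-37917067, minus strand): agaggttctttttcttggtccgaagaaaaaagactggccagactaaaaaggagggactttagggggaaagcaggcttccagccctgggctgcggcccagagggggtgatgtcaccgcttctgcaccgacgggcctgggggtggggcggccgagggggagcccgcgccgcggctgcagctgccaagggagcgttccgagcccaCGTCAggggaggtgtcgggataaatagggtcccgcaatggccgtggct
CTNNB1 (chr3:41199255-41199504, plus strand): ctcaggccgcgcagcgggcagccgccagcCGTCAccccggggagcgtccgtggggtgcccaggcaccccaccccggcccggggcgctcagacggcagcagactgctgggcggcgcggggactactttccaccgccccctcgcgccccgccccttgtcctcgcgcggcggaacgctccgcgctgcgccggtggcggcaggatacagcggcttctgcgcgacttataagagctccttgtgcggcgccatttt

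The DKK1 sequence held 1 TEAD core, whose first letter lies 50 bases before the gene start, and 2 TCF/LEF cores at 149 and 95 bases before it. The sequences of SFRP4 and CTNNB1 each held 1 core of the cyclic AMP response element, at 48 and 221 bases before the start, and that of LGR4 held none of these letters. Among 14250 array genes with such a sequence, 10.0% held the TEAD core, 9.58% the TCF/LEF core and 25.6% the cyclic AMP response element core on either strand. Among the 40 members with a sequence the counts were 2, 1 and 8. The letters AAGGTCA, to which receptors of the NR5A family bind, was in 2.79% of all sequences and in 1 of the 40. These motifs do not overlap one another in the sequences shown. A match is a description of the letters in this window and not a binding site.

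The remaining siRNA calls were limited to 1 medium. Among the ligands none was higher. WNT4, a ligand of ovarian development, was at 5.46 in siNC, 6.49 in siNC+8Br-cAMP, 4.82 in siYT and 4.61 in siYT+8Br-cAMP. It was called lower after siYT with 8Br-cAMP, with a difference of -1.88, and only the siNC+8Br-cAMP value reached the filter. With 32 added on the linear scale this difference was -1.11. WNT4 was not called with the filter at 6.95.

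WNT5B, a ligand that mostly acts without beta-catenin, was at 9.50 in siNC, 7.95 in siNC+8Br-cAMP, 7.84 in siYT and 8.36 in siYT+8Br-cAMP. The siNC array was the high one and the others lay close together. WNT5B was 3.15-fold lower after siYT without 8Br-cAMP and differed by 0.41 with it. Its close relative WNT5A was at 8.73, 9.50, 7.99 and 9.52 in the same order, and its siRNA differences of -0.74 and 0.02 were not called.

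The Frizzled receptors FZD1 and FZD4 were higher after siYT only in the medium without 8Br-cAMP. FZD1 was at 8.44 in siNC, 9.35 in siNC+8Br-cAMP, 9.98 in siYT and 8.89 in siYT+8Br-cAMP. It was 2.91-fold higher after siYT without 8Br-cAMP and differed by -0.47 with it. FZD4, which also serves as the receptor of norrin, was at 8.29, 11.35, 9.95 and 10.85 in that order. It was 3.16-fold higher after siYT without 8Br-cAMP and differed by -0.50 with it. For both genes siNC was the lowest of the arrays, and each of the other arrays was higher.

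SFRP1, a secreted antagonist like SFRP4, was lower after siYT without 8Br-cAMP and higher with it. It stood at 6.11 in siNC, 8.39 in siNC+8Br-cAMP, 5.48 in siYT and 9.61 in siYT+8Br-cAMP. The siRNA differences were -0.63, with both values under the filter, and 1.22, of which the second was called.

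With 8Br-cAMP, 5 of 59 members were called after siNC, 4 higher and 1 lower, or 8.47%, where 8.06% of all genes were called, 4.32% higher and 3.74% lower. After siYT 9 were called, 5 higher and 4 lower, or 15.3%, where 8.21% of all genes were called, 4.06% higher and 4.15% lower. Both comparisons of 8Br-cAMP share arrays with those of the siRNA. The median difference of the members was 0.03 after siNC and -0.03 after siYT, beside -0.03 and -0.02 over all genes. AXIN2, CTNNB1 and SFRP1 were called higher after both siRNAs, by the same rule, and no member was lower after both. These are 5.08% of the members, where 3.05% of all genes were called after both, 1.74% higher and 1.31% lower. AXIN2 was not called on its own after siNC, where both of its values lie under the filter.

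SFRP1 had the widest range of these genes. With 8Br-cAMP it was higher by 2.28 after siNC and by 4.13 after siYT. Both differences start from values under the level filter, and with 32 added on the linear scale they were 1.86 and 3.41. It rose by 3.21 on average with an SE of 0.421 (limma, adjusted p = 0.00398). CTNNB1, which encodes beta-catenin itself, was at 14.06 in siNC, 15.25 in siNC+8Br-cAMP, 13.87 in siYT and 15.98 in siYT+8Br-cAMP. The arrays with 8Br-cAMP were above those without it, by 2.29-fold after siNC and 4.33-fold after siYT. It rose by 1.65 on average with an SE of 0.338 (limma, adjusted p = 0.0385). AXIN2 differed by 2.34 with 8Br-cAMP after siNC, between values under the filter, and by 1.79 after siYT. With 32 added on the linear scale these were 1.17 and 1.31. Its mean of 2.06, with an SE of 0.318, passed the fit (limma, adjusted p = 0.00923), again with 3 of 4 values under the filter. These 3 were the members that passed for 8Br-cAMP, or 5.08% of them, where 1.81% of all genes passed, 1.15% with a rise and 0.662% with a fall. No member fell with 8Br-cAMP in this fit (limma).

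Further ligands and receptors differed with 8Br-cAMP after 1 siRNA. FZD4 was higher by 8.33-fold after siNC, which was called, and by 1.86-fold after siYT, which was not. It did not pass the fit (limma, adjusted p = 0.0601), but passed as higher with arrays centred on their median, with cyclic loess, in a fit of filtered genes only and with a trended prior. WNT5A, a ligand that mostly acts without beta-catenin, was higher by 1.71-fold after siNC, which was not called, and by 2.89-fold after siYT, which was. LRP5, a coreceptor of WNT proteins, was at 9.52 in siNC, 9.76 in siNC+8Br-cAMP, 9.33 in siYT and 10.49 in siYT+8Br-cAMP, and was called 2.23-fold higher after siYT. WNT4 was 2.05-fold higher after siNC, a call that did not hold with each array centred on its median, where its difference was 0.99.

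Lower values with 8Br-cAMP were called mainly after siYT. FZD6, a receptor often tied to planar cell polarity, was at 12.38 in siNC, 11.88 in siNC+8Br-cAMP, 13.03 in siYT and 11.36 in siYT+8Br-cAMP. It was 3.19-fold lower with 8Br-cAMP after siYT and 1.42-fold lower after siNC. FZD1 was 2.13-fold lower, DKK1 2.38-fold lower and SFRP4 3.13-fold lower after siYT, while after siNC the same genes differed by 0.92, 0.38 and -0.25. WNT5B was the only member called lower after siNC, by 2.92-fold, and differed by 0.52 after siYT.

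**Figure D3:**
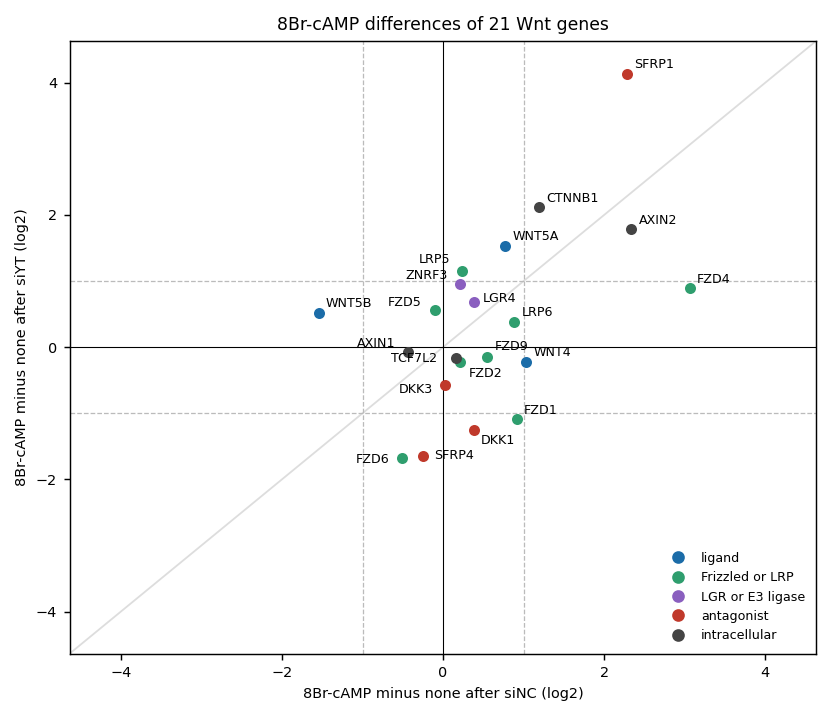
Difference between 8Br-cAMP and no 8Br-cAMP in log2 units after siNC (horizontal axis) and after siYT (vertical axis) for the 21 Wnt genes that reached the level filter, coloured by role. AXIN2, CTNNB1 and SFRP1 lie past the dashed threshold of 1 on both axes, FZD4 is the farthest to the right at 3.06, and WNT5B is the farthest to the left at -1.54.

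The difference of differences subtracts the 8Br-cAMP difference of the siNC arrays from that of the siYT arrays. It was called for 8 of 59 members, or 13.6%, 2 higher and 6 lower, where 8.39% of all genes were called, 3.57% higher and 4.82% lower. It was positive for WNT5B (2.07) and SFRP1 (1.85). It was negative for FZD4 (-2.16), FZD1 (-2.01), DKK1 (-1.63), SFRP4 (-1.40), WNT4 (-1.25) and FZD6 (-1.17). The Frizzled receptors called here, FZD1, FZD4 and FZD6, were all negative, so that their siRNA difference was lower with 8Br-cAMP than without. With 1 array per group this term has no residual degree of freedom and no test. Over all genes 42.5% of such calls were positive, and 53.9% with each array centred on its median, where LRP5 and CTNNB1 were called as well with 1.02 each.

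**Figure D4:**
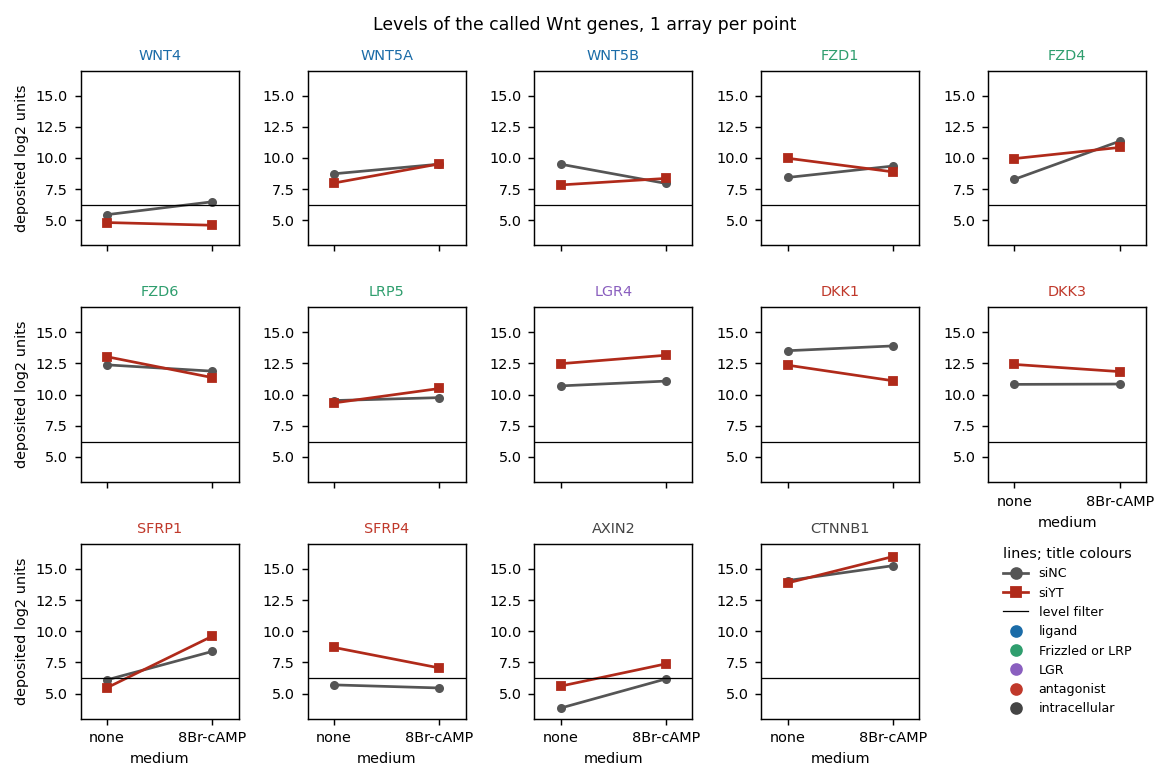
Levels in deposited log2 units (vertical axis) without and with 8Br-cAMP (horizontal axis) for the 14 Wnt genes called in at least 1 comparison, with siNC as grey circles and siYT as red squares, 1 array per point and no error bar. Lines for LGR4, DKK1, DKK3, SFRP4, AXIN2 and WNT4 do not cross. Those for FZD1, FZD4, FZD6, WNT5B, SFRP1, CTNNB1, LRP5 and WNT5A cross, with WNT5A differing by only 0.02 with 8Br-cAMP.

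The other members that reached the filter were called in no comparison. They were the receptors FZD2, FZD5, FZD9 and LRP6, the ligase ZNRF3, the scaffold AXIN1 and the transcription factor TCF7L2. FZD2 lay between 7.92 and 8.26, LRP6 between 7.61 and 8.52, and TCF7L2, the TCF factor of this set that reached the filter, between 6.54 and 7.28. FZD5 lay between 5.75 and 6.32 and FZD9 between 5.82 and 6.66, close to the filter. The largest of their differences was 0.96, for ZNRF3 with 8Br-cAMP after siYT.

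Other genes of the pathway were taken from a list of 66, of which 60 were measured and 41 reached the filter. It holds proteins that make, carry, receive or relay WNT signals. With YAP/TAZ siRNA 10 were called higher and 2 lower without 8Br-cAMP, or 20.0% of those measured beside 14.9% of all genes. With 8Br-cAMP 5 and 2 were called, or 11.7% beside 11.5%. The median difference of the list was 0.34 without and 0.00 with 8Br-cAMP. Called higher in both media were NDP, GPC4, USP34 and CXXC5, and VANGL1 was lower. By the additive fit these 4 rose and VANGL1 fell (limma, adjusted p from 0.000882 to 0.0395).

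NDP encodes norrin, a secreted ligand that is not a WNT protein and signals through FZD4 with LRP5. It was at 9.09 in siNC, 9.24 in siNC+8Br-cAMP, 11.49 in siYT and 11.80 in siYT+8Br-cAMP, so that the siYT arrays were the higher ones, by 5.30-fold and 5.90-fold. GPC4, a glypican that binds ligands at the cell surface, differed by 1.93 and 1.85. CXXC5, an inhibitor of the relay protein Dishevelled, differed by 2.51 and 1.37, and USP34, a deubiquitinase that acts on AXIN, by 1.17 and 1.18. VANGL1, a membrane protein of planar cell polarity, differed by -1.14 and -1.35.

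With 8Br-cAMP the same list had 2 members called higher and 1 lower after siNC, or 5.0% beside 8.06% of all genes. After siYT 1 and 5 were called, or 10.0% beside 8.21%. ROR1, a receptor of WNT5A, was lower after both siRNAs, by -2.31 and -1.20. It fell with 8Br-cAMP in the additive fit (limma, adjusted p = 0.0362). TRABD2A, a membrane protease that inactivates WNT proteins, was higher after both, by 1.23 and 1.87, and rose (limma, adjusted p = 0.0415).

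A list of 36 other genes described as beta-catenin targets in some cell type had 34 measured and 21 that reached the filter. Several of them, such as MYC and CCND1, also answer to other pathways. With YAP/TAZ siRNA 6 were called higher and 5 lower without 8Br-cAMP, or 32.4% of those measured beside 14.9% of all genes. With 8Br-cAMP 2 and 6 were called, or 23.5% beside 11.5%. The median difference of the list was 0.09 and 0.13. SOX4, a transcription factor, was higher in both media by 2.73 and 2.84, and TNFRSF19, a receptor of the TNF receptor family, by 3.67 and 3.17. Lower in both media were MYC (-2.68 and -2.24), the survivin gene BIRC5 (-3.08 and -3.17), the follistatin gene FST (-3.28 and -1.62) and the AP-1 subunit JUN (-1.24 and -1.51). By the additive fit 3 of the 34 rose and 4 fell for the siRNA (limma), so these targets differed in both directions.

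With 8Br-cAMP 5 of these targets were called higher and 7 lower after siNC, or 35.3% beside 8.06% of all genes. After siYT 2 and 6 were called, or 23.5% beside 8.21%. The list was drawn up with earlier results of these data known, and these shares are a description. Higher after both siRNAs were TNFRSF19 (4.91 and 4.41) and the nuclear receptor PPARD (1.84 and 1.59). Lower after both were JUN (-2.58 and -2.84), the cyclin CCND1 (-1.59 and -1.56), the tight junction gene CLDN1 (-2.49 and -3.08) and ENC1, an actin-associated protein (-2.28 and -1.35). By the additive fit 2 rose and 4 fell with 8Br-cAMP (limma).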

How the data were processed

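Clariom S Human arrays were read for 4 samples, 1 per group. Per the labels, the deposited log2 values are RMA signals from the Affymetrix Expression Console. RMA corrects background, equalises the distributions of the arrays and summarises probes; the annotation build was not given in the sources used here. Values reached 19.36, above 16, the log2 of the largest 16-bit scanner value, so a further rescaling is possible and folds need not be ratios of signal. Of 24351 probe sets, 17709 named exactly 1 gene in the platform annotation and gave 17687 genes, probe sets of a gene being averaged. Differences were called at 1 log2 unit with the level filter of 6.22; a call that held in each medium, or after each siRNA, needed the highest of the 4 arrays to reach it. The additive fit used limma 3.58.1 in R 4.3.3 with Benjamini-Hochberg adjustment over all genes at 0.05. With 1 residual degree of freedom its prior is estimated imprecisely. Tested on simulated data with additive effects only, the fit called more unchanged genes than the 0.05 level allows in most simulations. In the real data the residual holds the departure from additivity, which was not simulated. The simulations therefore do not give the error rate here, and the adjusted p-values may be too small. Values are given for every member called in any difference, and other members by level. From the 2 other lists, the genes with such repeated calls are named. The rule for members reads symbols only, but the gene families and the other lists were chosen with earlier results of these data known, so the choice was not independent of the values. Alternatives covered the filter, size threshold, scaling and prior. Promoter sequences are from RefSeq.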

Additional observations from a re-analysis of the deposited data

Results flagged for a closer look

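Several members differed in opposite directions in the 2 media or after the 2 siRNAs while their difference of differences was called. With 1 array per group none of these contrasts was tested. The siRNA difference had opposite signs in the 2 media for FZD4 (difference of differences -2.16), FZD1 (-2.01), FZD6 (-1.17), SFRP1 (1.85) and WNT5B (2.07). The 8Br-cAMP difference had opposite signs after the 2 siRNAs for FZD1 (-2.01), DKK1 (-1.63), WNT4 (-1.25) and WNT5B (2.07). For FZD6 the siRNA differences were 0.65 and -0.52, both under the threshold on their own. In no pair listed here did both differences pass the threshold. For SFRP1 and WNT4 the smaller difference of the pair lay between values under the level filter.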

How the results depend on the processing

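No paired analysis was possible because each group has 1 array and the labels give no replicate numbers. Of 54 recomputed counts of members, 45 stayed within 1.5 times the reported count and 9 did not. Without a level filter 11 members were called with 8Br-cAMP after siNC (5 reported) and 14 by the difference of differences (8 reported), the added genes lying near the background. With a size threshold of 1.5 these counts were 3 and 5, and 2 members, LGR4 and SFRP4, were called in both media (4 reported). For the additive fit, 0 members passed for the siRNA (5 reported) and 0 for 8Br-cAMP (3 reported) with 32 added on the linear scale, where 0 of all genes passed (1586 and 321 reported; 3964 and 2769 had an unadjusted p under 0.05, limma). With the prior degrees of freedom set to 4, an alternative chosen after seeing the data, 0 members passed for either term, and 238 and 0 of all genes did (limma; 3095 and 1898 had an unadjusted p under 0.05). Other settings added calls: WNT4 passed for the siRNA with centred arrays, cyclic loess or filtered genes only, 6 members in each, and FZD4 for 8Br-cAMP with these and a trended prior, 4 members in each (limma). For 8Br-cAMP all-gene counts were then 515, 744, 702 and 508 against 321. WNT4 was among the filtered genes only through its siNC+8Br-cAMP value. Single differences of the 14 called members, YAP1 and WWTR1 did not reverse where called under the 3 scalings; 4 of these values lost their call and 4 gained one. Signals near the negative controls limit AXIN2, WNT4, SFRP1 and SFRP4.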

Other observations

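Some members under the level filter had differences as wide as those of called genes. LEF1, a TCF family factor and target of the pathway, was at 5.23 in siNC, 3.53 in siNC+8Br-cAMP, 4.52 in siYT and 5.97 in siYT+8Br-cAMP, so that its siRNA difference was -0.71 without and 2.43 with 8Br-cAMP. RSPO3, an R-spondin, was at 2.63, 4.77, 4.16 and 4.13 in the same order, with siNC the low array. Among the 38 members under the filter, 8 differed by at least 1 with the siRNA or with 8Br-cAMP, and 10 when the difference of differences is counted too. No call was made for any of these genes.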
